A study of Oryctolagus cuniculus with 30 samples.

Results

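Rabbit ear wounds that had closed and then spent 3 days in open air were compared with unwounded ear epidermis. The comparison used the 6 arrays labelled as non-occluded wounds at day 3 and the 2 arrays labelled as normal skin, which is 8 of the 30 arrays of the series. All rabbits were female New Zealand White, a laboratory breed. For the uncovered group, a grid of cuts was made on the ear, 1 layer of Tegaderm (a transparent adhesive film) lay over it for 2 days until closure (day 0), and the film was then taken off for 3 days. For the unwounded group the labels give neither a wound nor a dressing, so wounding, the early film and the open days cannot be told apart in this comparison. The other groups used below were wounds at day 0 (6 arrays), covered wounds at day 3 (5 arrays) and at day 5 (5 arrays), which received 4 more layers of film from day 0 on, and uncovered wounds at day 5 (6 arrays). In each, 30 min in 0.5 M ammonium thiocyanate loosened the epidermis, and 400 ng of its total RNA was labelled with Cy3, a fluorescent dye. Arrays cannot be assigned to animals from the labels. The p-values therefore measure only the spread between samples that may share animals.

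After a wound closes, keratinocytes, the cells that make up most of the epidermis, are known to stay in an activated state for some time: they proliferate, make inflammatory mediators and change their program of differentiation. This activated state fades as the new epidermis rebuilds its stratum corneum, the dead outer layer that holds water in. Until that barrier is rebuilt, a wound left in air loses more water than intact skin, and an occlusive film reduces this loss.

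The array carried 23369 rabbit probes of 60 bases from 16139 contigs or clones (contigs below), and 12342 probes well above background on at least 2 of the 30 arrays were tested. The files describe every probe as unknown, and no table at hand pairs probes with genes, so probes are given by their identifiers and sequences. For the same reason the epidermal label could not be checked against marker genes. Levels are log2 signals relative to each array's 75th percentile among the 7446 probes that exceeded background on every array. Between 39.7% and 50.4% of probes were well above background on an array. Across tested probes the uncovered day 3 arrays correlated with each other with r of 0.942 to 0.987. The 2 unwounded arrays correlated with r of 0.938, and 26.5% of tested probes differed between them by more than 2-fold. Uncovered replicates 1 to 6 correlated with unwounded replicate 1 with r of 0.967, 0.947, 0.959, 0.956, 0.922 and 0.936. These values exceeded 0.938 for replicates 1 to 4 and lay below it for replicates 5 and 6. With unwounded replicate 2 the uncovered arrays had r of 0.885 to 0.932, all below 0.938. Unwounded replicate 1 lay on slide 5 with uncovered replicate 1 (r = 0.967) and was scanned on the same day as uncovered replicates 1 and 2. Unwounded replicate 2 lay on slide 6, was scanned on a day with no uncovered day 3 array, and had 257 outlier spots, against 4 to 60 on the uncovered day 3 arrays and 29 on the other unwounded array. In such bulk samples fewer cells of a type and less RNA per cell cannot be told apart.

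The probes that carry the main rises are shown here because the letters are the only identity these probes have. They are given 5′ to 3′, and capitals, where present, mark the hexamer AATAAA or ATTAAA, the usual polyadenylation signals near the 3′ end of an mRNA. The first 2 belong to 1 contig, as do UF_Ocu_AF_100831 and UF_Ocu_AF_100832, and UF_Ocu_AF_100023 and UF_Ocu_AF_100024.
UF_Ocu_AF_109724: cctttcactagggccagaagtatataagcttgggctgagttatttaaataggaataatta
UF_Ocu_AF_109723: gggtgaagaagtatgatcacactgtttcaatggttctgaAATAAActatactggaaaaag
UF_Ocu_AF_101829: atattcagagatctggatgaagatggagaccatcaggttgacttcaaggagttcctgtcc
UF_Ocu_AF_108490: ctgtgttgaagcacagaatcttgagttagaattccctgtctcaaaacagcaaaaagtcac
UF_Ocu_AF_102422: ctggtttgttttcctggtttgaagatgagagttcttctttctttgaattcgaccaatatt
UF_Ocu_AF_107344: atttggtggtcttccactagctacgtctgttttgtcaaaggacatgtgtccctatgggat
UF_Ocu_AF_109803: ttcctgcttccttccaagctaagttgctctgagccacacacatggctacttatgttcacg
UF_Ocu_AF_100831: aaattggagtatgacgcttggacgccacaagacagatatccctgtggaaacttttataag
UF_Ocu_AF_100832: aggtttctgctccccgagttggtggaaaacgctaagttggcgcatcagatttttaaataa
UF_Ocu_AF_100023: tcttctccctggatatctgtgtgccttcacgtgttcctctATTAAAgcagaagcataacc
UF_Ocu_AF_100024: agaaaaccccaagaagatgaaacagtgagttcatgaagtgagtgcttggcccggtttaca

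The probes that carry the main falls follow. In UF_Ocu_AF_107910 and UF_Ocu_AF_103486, which come from different contigs, the capitals mark a run of 13 bases that both share and that no other probe of the array holds. In the others they mark the same hexamers, where present. UF_Ocu_AF_106134 and UF_Ocu_AF_106133 belong to 1 contig.
UF_Ocu_AF_107910: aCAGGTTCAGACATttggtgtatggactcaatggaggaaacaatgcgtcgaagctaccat
UF_Ocu_AF_103486: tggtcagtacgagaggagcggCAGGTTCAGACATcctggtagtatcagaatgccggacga
UF_Ocu_AF_103099: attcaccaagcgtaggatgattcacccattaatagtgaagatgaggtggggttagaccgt
UF_Ocu_AF_106912: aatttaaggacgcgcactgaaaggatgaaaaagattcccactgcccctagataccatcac
UF_Ocu_AF_106134: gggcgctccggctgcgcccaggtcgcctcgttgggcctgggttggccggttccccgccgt
UF_Ocu_AF_106133: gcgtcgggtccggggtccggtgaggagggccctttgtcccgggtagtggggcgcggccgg
UF_Ocu_UN_116775: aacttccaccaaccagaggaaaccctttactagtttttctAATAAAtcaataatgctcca
UF_Ocu_AF_111876: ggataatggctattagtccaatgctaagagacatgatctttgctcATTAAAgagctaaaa
UF_Ocu_UN_119427: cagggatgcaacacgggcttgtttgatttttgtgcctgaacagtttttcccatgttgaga
UF_Ocu_AF_103583: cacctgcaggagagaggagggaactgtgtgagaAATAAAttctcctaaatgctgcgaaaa

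Uncovered wounds at day 3 differed from unwounded epidermis in both directions, by at least 1038-fold for the largest rise described below and at least 552-fold for a fall. Probes count as called where limma, fitted to all 30 arrays, gave an adjusted p (Benjamini-Hochberg) under 0.05. Of the 12342 tested probes 1691 were called (13.7%), 938 of them higher (7.60%) and 753 lower (6.10%). The balance between the directions depended on the scaling: with the authors' own values 788 probes were higher and 966 lower. With normexp background correction 534 were higher and 193 lower, and the median change of all tested probes moved to 0.35, against 0.05 here. At least 2-fold changes were found for 660 higher (5.35%) and 476 lower (3.86%) probes. At least 16-fold changes were found for 49 higher and 7 lower probes. The median log2 change was 1.33 over the higher and -1.15 over the lower probes. All 6 uncovered arrays lay beyond both unwounded arrays for 842 of the 938 higher and 676 of the 753 lower probes, where 11.6% of all tested probes did so in each direction. A failure to be called says little about many probes, since 6191 of the 10651 probes that were not called had a 95% interval that reached beyond a 2-fold change, while 4460 had an interval within it.

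Some transcripts crossed the detection limit. On the whole array 94 probes were well above background on all 6 uncovered arrays and on neither unwounded array, and 70 of them were called higher. The reverse held for 23 probes, 18 of which were called lower. A further 8102 probes were well above background on all 8 arrays, and 11882 on none.

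The 2 unwounded arrays did not give the same count of changes. Against unwounded replicate 1 alone 207 probes were called higher (1.68%) and 81 lower (0.656%). Against unwounded replicate 2 alone 2084 were called higher (16.9%) and 854 lower (6.92%). In each of these fits the remaining array was assumed to vary like the arrays of the other groups. Since the 1691 probes were called on the mean of both unwounded arrays, their sign against each is largely fixed: 4 had the opposite sign against replicate 1 alone and 0 against replicate 2 alone, where 9 probes had no value because their spots were left out as outliers. The higher probes had a median log2 change of 0.98 against replicate 1 and 1.53 against replicate 2, and the lower probes -0.90 and -1.32. Of the 1691, 210 were called against each unwounded array alone, 158 higher and 52 lower.

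**Figure D1:**
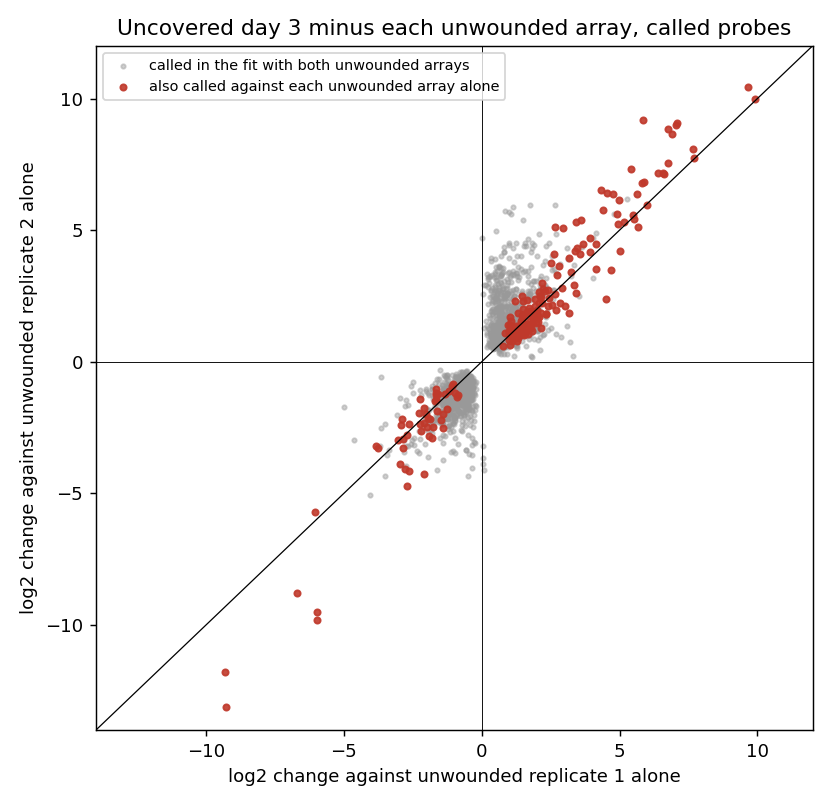
Log2 change of the called probes at uncovered day 3 against unwounded replicate 1 alone (x axis) and against unwounded replicate 2 alone (y axis). Red points are the 210 probes called against each array alone, grey points the other called probes that have both values, and the diagonal marks equal changes. The red points run along the diagonal out to log2 changes of about 10, while the grey points lie mostly further from 0 on the y axis.

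Slide 5 allowed the comparison to be read within a slide, with 1 array of each group. The probes for this check were called in a fit without slide 5, so neither array had a part in choosing them. Unwounded replicate 2 was then the sole unwounded array, assumed to vary like the arrays of the other groups. Of the 1661 probes called higher in that fit 79.4% were higher in uncovered replicate 1 than in unwounded replicate 1, by a median log2 of 0.33, against a median of 2.14 in the fit that chose them. Of all tested probes 46.5% were higher on slide 5. Of the 673 called lower 89.2% were lower there, by a median of -0.47, against -1.50, where 53.5% of all tested probes were lower. The changes were smaller on slide 5: 274 of the 1661 and 122 of the 673 reached 2-fold in the same direction.

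The uncovered arrays differed among themselves in how far they lay from unwounded skin. Over the higher probes the median distance from the unwounded mean was 1.52 and 1.53 on uncovered replicates 5 and 6 and 1.17 to 1.21 on the other uncovered arrays. Over the lower probes it was -1.61 and -1.21 on replicates 5 and 6 and -0.94 to -1.08 on the others. Unwounded replicate 1 lay 0.22 above the unwounded mean over the higher probes and 0.21 below it over the lower probes. It was thus the unwounded array nearer to the wounds in both lists.

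Probes were singled out if they were called in all 3 fits (both unwounded arrays, and each alone), if their groups did not overlap, and if they were well above background and unsaturated on every array of the brighter group, which left 144 higher and 47 lower probes. The 12 largest changes in each direction, 1 probe per contig, are described next. Where no array of the dimmer group was well above background, a fold is a bound, written "at least". It sets the mean of the brighter group against the mean of the dimmer group with each dim array raised, where lower, to its lowest signal well above background.

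UF_Ocu_AF_109724 rose most. On the 6 uncovered arrays its log2 level was 2.65 at the lowest, 3.34 at the median and 3.99 at the highest, against -6.26 and -7.04 on the 2 unwounded arrays. All uncovered arrays lay far above both unwounded arrays, on which the probe was not well above background. Its log2 change was 10.04 (SE 0.72, limma adjusted p = 2.77e-10), and it was at least 1038-fold higher. UF_Ocu_AF_109723 of the same contig exceeded background clearly on 1 of the 2 unwounded arrays and rose by 9.94 (SE 0.72, limma adjusted p = 2.77e-10). The fitted changes of the 2 probes were thus nearly the same. Neither is a fully measured size, since for neither probe were both unwounded arrays well above background.

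UF_Ocu_AF_101829 had levels of 0.71, 1.69 and 2.70 (lowest, median, highest) on the uncovered arrays, against -5.37 and -7.37 on the unwounded arrays. The groups did not overlap, and 1 unwounded array was well above background. The log2 change was 8.07 (SE 1.07, limma adjusted p = 9.5e-06). UF_Ocu_AF_108490 had 0.93, 2.29 and 3.19 on the uncovered arrays, against -4.88 and -6.82 on the unwounded ones, again with 1 unwounded array well above background. It rose by 8.02 (SE 0.88, limma adjusted p = 4.17e-07). For both probes the unwounded arrays lay about 2 log2 units apart, and replicate 1 was the higher.

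UF_Ocu_AF_102422 lay close together on the uncovered arrays, at -0.34, -0.09 and 0.72, against -7.57 and -7.99 on the unwounded arrays, neither well above background. It was at least 105-fold higher (log2 change 7.86, SE 0.59, limma adjusted p = 3.68e-10). UF_Ocu_AF_107344 was well above background on all 8 arrays, at 1.33, 2.04 and 3.32 in uncovered wounds, against -4.46 and -5.06 in unwounded skin. Its 117-fold rise (log2 change 6.87, SE 0.54, limma adjusted p = 9.56e-10) is thus a measured ratio and not a bound.

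UF_Ocu_AF_109803 shared the lowest adjusted p of all rises with UF_Ocu_AF_100024. It lay at -3.06, -1.89 and -1.02 on the uncovered arrays, against -7.60 and -8.36 on the unwounded arrays, and was at least 25.3-fold higher (log2 change 6.00, SE 0.38, limma adjusted p = 1.88e-11). UF_Ocu_AF_112455 was unusual in that both unwounded arrays gave nearly the same level, -4.09 and -4.05, against 1.02, 1.80 and 3.16 on the uncovered arrays. It rose by 5.97 (SE 0.77, limma adjusted p = 6.06e-06). UF_Ocu_UN_121601 spread most among the uncovered arrays, at 0.01, 2.38 and 3.24, against -3.33 and -5.22 in unwounded skin, and rose by 6.37 (SE 0.67, limma adjusted p = 2.44e-07).

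The last of the 12 with bounds were UF_Ocu_AF_106575, at least 30.1-fold higher, UF_Ocu_AF_104471, at least 18.6-fold, and UF_Ocu_AF_110525, at least 34.0-fold. Over the 12 the SD between uncovered arrays was 0.34 to 1.1. The unwounded arrays differed by at least 1 log2 unit for 5 of the 12, and replicate 2 was the lower for 11. The difference on slide 5 alone was 4.82 to 9.56, and within the scan day that holds uncovered replicates 1 and 2 and unwounded replicate 1 it was 5.11 to 9.78. The direction of these differences was fixed by the choice of probes whose groups do not overlap, so only their size is a reading.

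UF_Ocu_AF_100831 is the rise on which the 2 probes of a contig disagree. Its levels were 3.02, 3.81 and 4.05 on the uncovered arrays, against -2.20 and -5.51 on the unwounded arrays, which were 3.31 log2 units apart. It rose by 7.51 (SE 1.09, limma adjusted p = 3.95e-05). UF_Ocu_AF_100832 of the same contig had 4.86, 5.38 and 5.50 on the uncovered arrays, against 5.25 and 4.82 on the unwounded ones. These groups overlapped, and its log2 change was 0.24 (SE 0.24, limma adjusted p = 0.507), so the rise of this contig rests on 1 of its 2 probes. UF_Ocu_AF_100832 was unsaturated on all 8 arrays, while on the same unwounded arrays UF_Ocu_AF_106133 was saturated at 6.15 and 5.36. Whether the high level of UF_Ocu_AF_100832 in unwounded skin limited the rise it could show was not tested. With slide or scan day as a block the change of UF_Ocu_AF_100832 was -0.042 and -0.13.

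**Figure D2:**
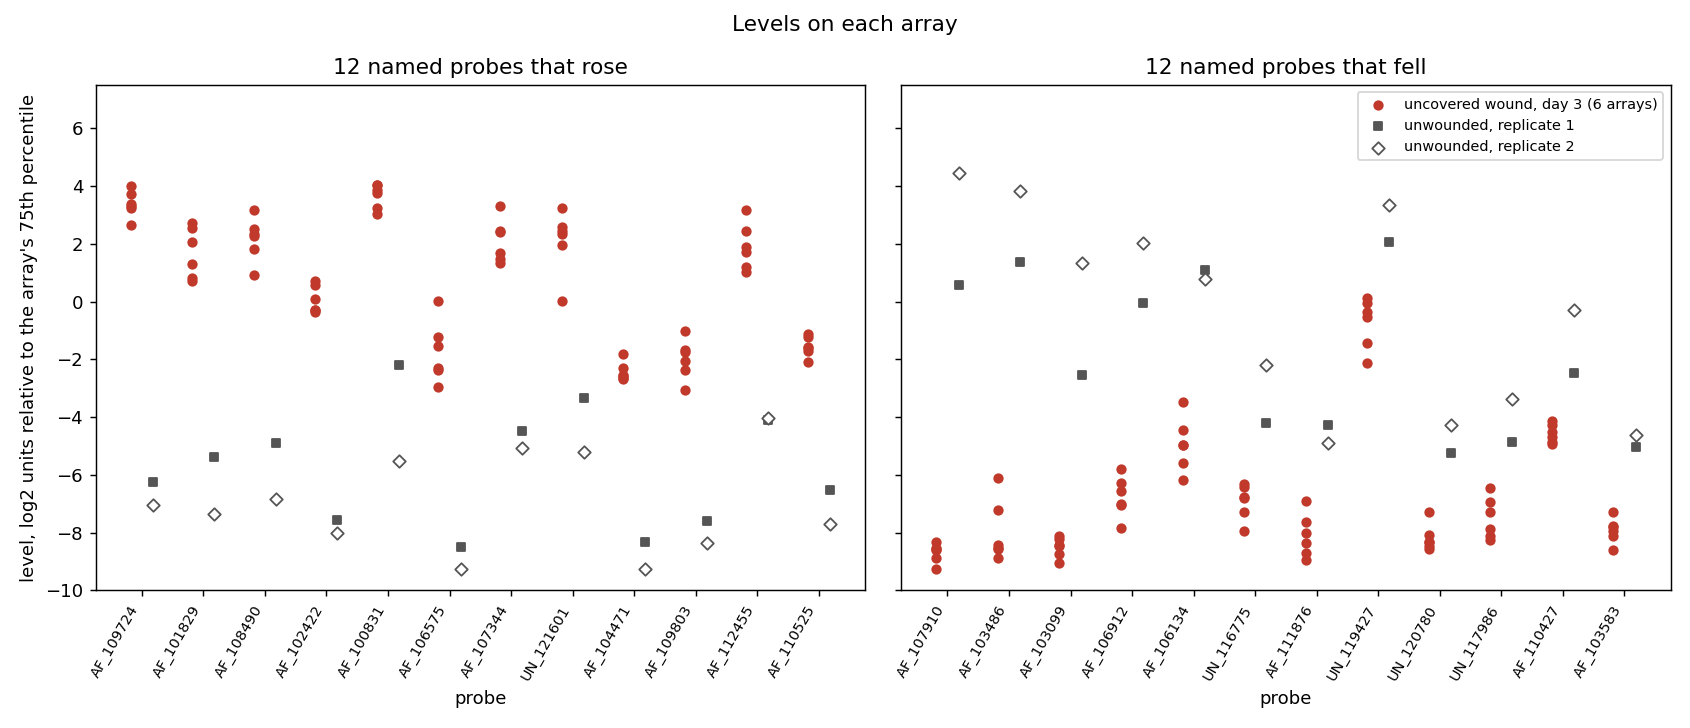
Level of the 12 named probes that rose (left) and the 12 that fell (right) on each array, in log2 units relative to the array's 75th percentile. For each probe the 6 uncovered day 3 arrays (red points) stand left of unwounded replicate 1 (grey square) and replicate 2 (open diamond), and the prefix UF_Ocu_ is left out of the probe names. The uncovered arrays lie above both unwounded arrays in every column on the left and below both in every column on the right.

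The largest falls were fewer, and the first 4 of them had unwounded arrays that differed widely. UF_Ocu_AF_107910 lay at -9.27, -8.59 and -8.31 (lowest, median, highest) on the uncovered arrays, none of them well above background, against 0.56 and 4.44 on the unwounded arrays. It was at least 512-fold lower (log2 change -11.19, SE 1.69, limma adjusted p = 6.06e-05). The groups were far apart, but the unwounded arrays themselves were 3.87 log2 units apart. UF_Ocu_AF_107909 of the same contig, also not well above background on any uncovered array, was at least 54.4-fold lower (limma adjusted p = 3.6e-05).

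UF_Ocu_AF_103486, which shares the 13-base run shown above with UF_Ocu_AF_107910, lay at -8.89, -8.48 and -6.12 on the uncovered arrays, against 1.37 and 3.84 on the unwounded ones, and was at least 552-fold lower (limma adjusted p = 0.000228). UF_Ocu_AF_103099 lay at -9.06, -8.45 and -8.11, against -2.54 and 1.33, and was at least 59.4-fold lower (limma adjusted p = 4.22e-06). UF_Ocu_AF_106912 was well above background on 2 of the 6 uncovered arrays and lay at -7.84, -6.78 and -5.78 on them, against -0.04 and 2.02 (log2 change -7.74, SE 1.26, limma adjusted p = 0.000164). In each of these probes unwounded replicate 2, the array on slide 6, was the higher unwounded array.

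UF_Ocu_AF_106134 had unwounded arrays that lay close together, at 1.11 and 0.77, while the uncovered arrays had -6.17, -4.96 and -3.47. All 8 arrays were well above background and the groups did not overlap. The fall was 58.5-fold (log2 change -5.87, SE 1.07, limma adjusted p = 0.000552). UF_Ocu_AF_106133 of the same contig had 2.82, 4.59 and 5.04 on the uncovered arrays, against 6.15 and 5.36 on the unwounded arrays, where it was saturated. Its fitted change of -1.49 (SE 0.72, limma adjusted p = 0.162) was not called, and the saturation limits how large a fall it could show, so the 2 probes cannot be compared.

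The other 7 named falls were smaller, with log2 changes of -3.73 to -3.08. UF_Ocu_UN_119427 was well above background on all 8 arrays and had -2.13, -0.44 and 0.12 in uncovered wounds, against 2.07 and 3.36 in unwounded skin (log2 change -3.44, SE 0.53, limma adjusted p = 7.92e-05). UF_Ocu_AF_111876 lay at -8.96, -8.19 and -6.92, against -4.26 and -4.90, and was at least 3.79-fold lower (limma adjusted p = 1.61e-05). UF_Ocu_AF_103583 lay at -8.60, -7.88 and -7.29, against -5.05 and -4.63, and was at least 3.16-fold lower (limma adjusted p = 2.17e-06). Neither was well above background on any uncovered array. With normexp background correction the fall lost its call for UF_Ocu_UN_116775, UF_Ocu_AF_111876, UF_Ocu_UN_120780, UF_Ocu_UN_117986 and UF_Ocu_AF_103583.

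Over the 12 falls the SD between uncovered arrays was 0.32 to 1.07. The unwounded arrays differed by at least 1 log2 unit for 8 of the 12, and replicate 2 was the higher for 10. The log2 differences were -9.80 to -1.81 on slide 5 and -9.86 to -2.14 within the shared scan day, their direction again fixed by the choice.

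Contigs with a pair of probes gave a measure of how far a change belongs to the transcript rather than to the probe. Of the 4228 contigs with 2 tested probes 349 had both called, and 348 of these agreed in direction, 188 higher and 160 lower. In 510 contigs 1 probe was called, and the other had the same sign in 443. The 2 changes of a contig differed by a median of 0.24 log2 units, and by 0.20 where both were called in the same direction. Of the 16 tested second probes of the named contigs, 10 of 11 rose and 4 of 5 fell with the named probe. UF_Ocu_AF_100832, unsaturated but already at a high level in unwounded skin, was the exception among the rises. UF_Ocu_AF_106133, saturated in unwounded skin, cannot be read as an exception among the falls.

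**Figure D3:**
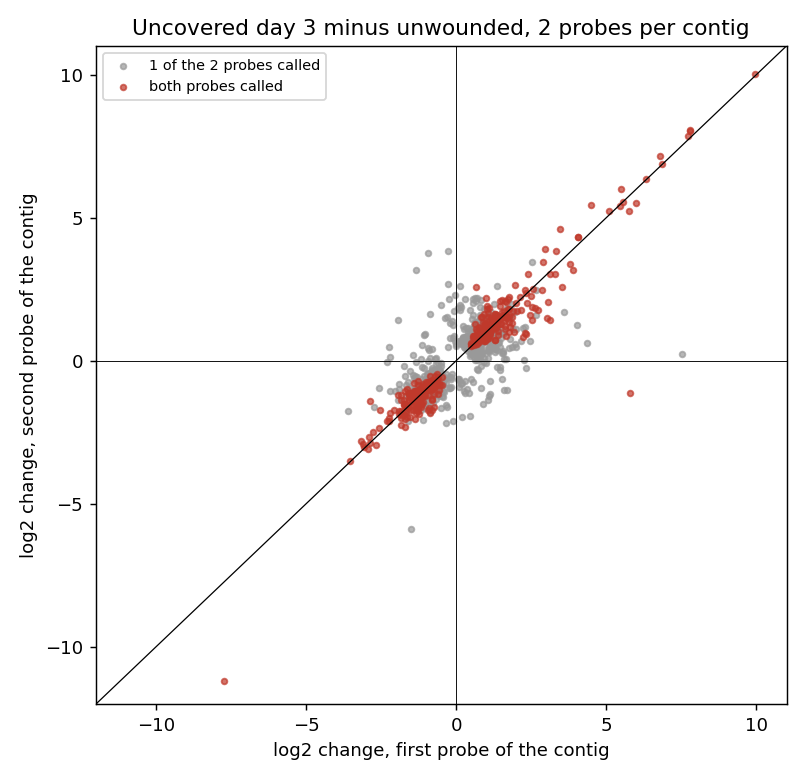
Log2 change at uncovered day 3 against unwounded skin of the first (x axis) and second probe (y axis) of each contig with 2 tested probes, at least 1 of them called. Red points are the 349 contigs with both probes called, grey points the 510 with 1 called, and the diagonal marks equal changes. All red points but 1 lie in the upper right or the lower left of the plot.

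The smallest p-values did not always belong to the largest changes. UF_Ocu_AF_100024 and UF_Ocu_AF_100023, of 1 contig, rose by 4.32 (SE 0.27, limma adjusted p = 1.88e-11) and 4.04 (SE 0.27, limma adjusted p = 4.16e-11), with unwounded levels of -4.65 and -4.98 for the first and -2.34 and -2.58 for the second. Among the falls the lowest values were those of UF_Ocu_AF_102078 and UF_Ocu_AF_102079, also of 1 contig, with log2 changes of -2.23 (SE 0.23, limma adjusted p = 1.78e-07) and -1.98 (SE 0.22, limma adjusted p = 6.56e-07). UF_Ocu_AF_102079 lay at -5.66, -5.15 and -5.05 on the uncovered arrays, against -3.25 and -3.28 on the unwounded arrays. In both contigs the unwounded arrays lay close together. At the threshold itself, UF_Ocu_AF_109336 was called with a log2 change of -0.81 (limma adjusted p = 0.0495) and UF_Ocu_AF_107552 was not with -0.89 (limma adjusted p = 0.05).

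Most of the named rises were also higher in uncovered than in covered wounds. The uncovered day 3 arrays were compared directly with the 5 covered arrays of the same day. This comparison shares the 6 uncovered arrays with the one that chose the probes. In all, 7.23% of tested probes were higher in uncovered than in covered wounds. Of the 12 named rises 11 were higher, by log2 differences of 5.17 to 9.41. UF_Ocu_AF_104471 was well above background on none of the 5 covered arrays, so its difference is a bound of at least 21.3-fold. UF_Ocu_AF_106575 and UF_Ocu_AF_109803 were well above background on 1 covered array each. With dim arrays raised as above, they were at least 30.1-fold and 24.8-fold higher. UF_Ocu_AF_109724, UF_Ocu_AF_102422 and UF_Ocu_AF_110525 were well above background on 2 covered arrays each, and were at least 508-fold, 88.3-fold and 27.7-fold higher. UF_Ocu_AF_109724 averaged 3.38 ± 0.46 (n = 6, SD) with the wound open and -6.02 ± 1.85 (n = 5, SD) under film (log2 difference 9.41, SE 0.54, limma adjusted p = 7.86e-13). UF_Ocu_AF_107344 averaged 2.11 ± 0.75 open (n = 6, SD) and -4.25 ± 0.87 under film (n = 5, SD), and differed by 6.36 (SE 0.40, limma adjusted p = 4.96e-12). UF_Ocu_AF_100831 was the exception: it averaged 3.66 ± 0.43 (n = 6, SD) with the wound open and 3.55 ± 0.52 (n = 5, SD) under film, a difference of 0.11 (SE 0.81, limma adjusted p = 0.963).

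The largest 5 named falls were not called between uncovered and covered wounds (limma adjusted p of 0.62 to 0.858), and for 4 of them the arrays could hardly show a difference. UF_Ocu_AF_107910 and UF_Ocu_AF_103099 were well above background on no array of either group, UF_Ocu_AF_103486 on 2 covered arrays, and UF_Ocu_AF_106912 on 2 uncovered arrays. UF_Ocu_AF_106134 was measured on all of them and differed by -0.45 (SE 0.79, limma adjusted p = 0.794). The other 7 were lower in uncovered wounds, where 9.07% of tested probes were. UF_Ocu_AF_111876 averaged -8.10 ± 0.74 (n = 6, SD) with the wound open and -5.29 ± 0.49 (n = 5, SD) under film (limma adjusted p = 3.21e-06). It was not well above background on any uncovered array, so it was at least 2.32-fold lower. UF_Ocu_UN_119427 averaged -0.73 ± 0.87 open (n = 6, SD) and 1.87 ± 0.38 under film (n = 5, SD), and differed by -2.60 (SE 0.39, limma adjusted p = 3.79e-05). With normexp background correction 1 of the 12 was called lower.

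**Figure D4:**
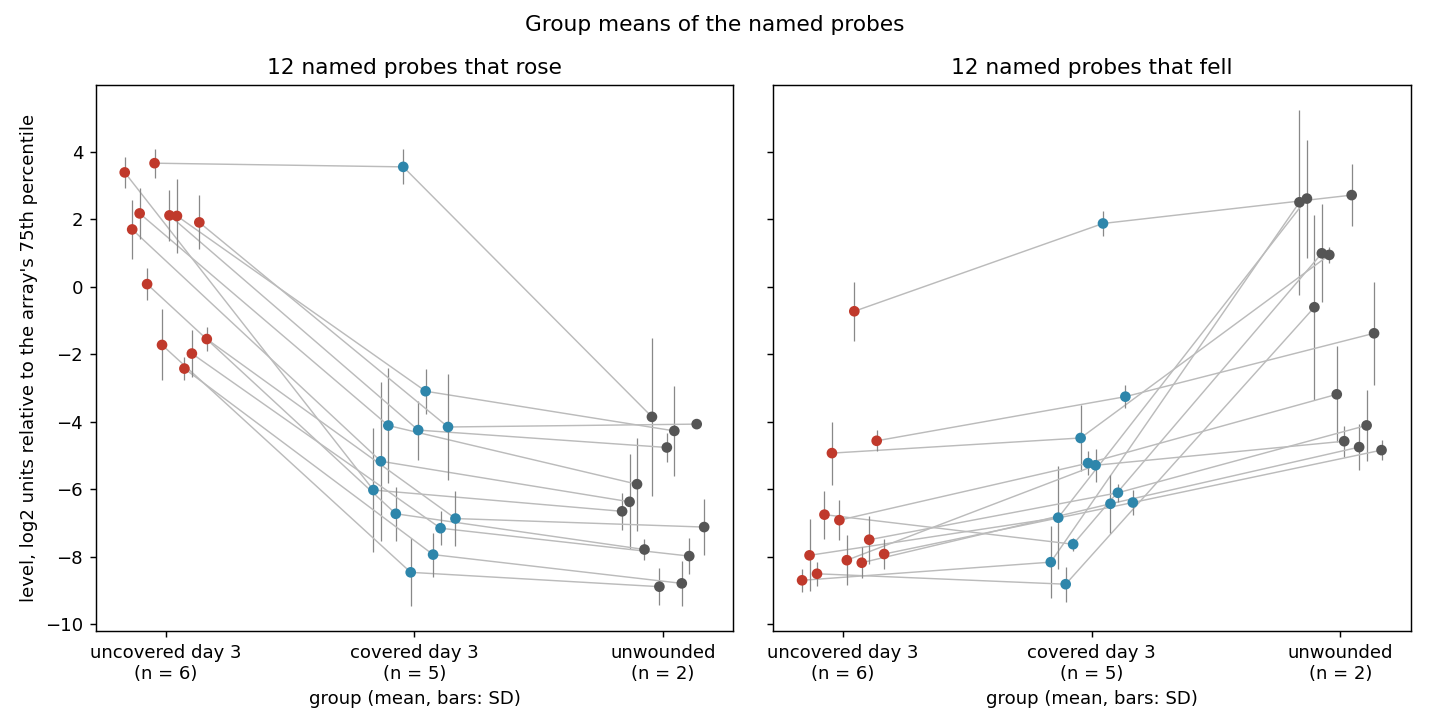
Group means of the 12 named probes that rose (left) and the 12 that fell (right) in uncovered wounds at day 3, covered wounds at day 3 and unwounded skin, in log2 units relative to the array's 75th percentile. Bars are SDs (n = 6, 5 and 2), and a grey line joins the means of each probe. On the left all lines but that of UF_Ocu_AF_100831 drop between the uncovered and the covered group, and on the right the 5 probes with the largest falls stay low in the covered group, 4 of them at or near background.

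The wound at day 0 and the uncovered wound at day 5 place day 3 in time. Both comparisons use the 6 uncovered day 3 arrays on which the probes were chosen for high or low values, so later falls of the rises and later rises of the falls are no independent support. Against day 0, 6 of the 12 named rises were higher at day 3 (20.5% of all tested probes) and 3 were lower (15.1%). UF_Ocu_AF_109724 was at -0.88 ± 0.66 at day 0, 3.38 ± 0.46 at day 3 and 2.72 ± 0.41 at day 5 (SD, n = 6 each), and rose by 4.26 after day 0 (limma adjusted p = 3.72e-07). UF_Ocu_AF_112455 was at 4.28 ± 0.31, 1.90 ± 0.80 and 1.24 ± 0.50 (SD, n = 6 each) and fell by 2.37 on the log2 scale after day 0 (limma adjusted p = 0.00111). The rises therefore did not share 1 course. At day 5, 4 of the 12 were lower than at day 3 (16.4% of all tested), and the other 8 did not pass the threshold, with limma adjusted p of 0.0601 to 0.516. UF_Ocu_AF_100831 fell by 2.69 on the log2 scale in that interval (limma adjusted p = 0.00685).

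Of the 12 named falls 9 were higher at uncovered day 5 than at day 3, where 28.4% of all tested probes were and the median change of all tested probes was 0.27. UF_Ocu_AF_107910 was at -6.95 ± 2.95 at day 0, -8.70 ± 0.34 at day 3 and -2.03 ± 2.04 at day 5 (SD, n = 6 each), a gain of at least 22.1-fold after day 3, when no array was well above background (limma adjusted p = 0.000101). UF_Ocu_AF_106134 was at -3.80 ± 2.49, -4.93 ± 0.93 and 0.28 ± 1.01 (SD, n = 6 each), a gain of 5.21 (limma adjusted p = 5.9e-06). UF_Ocu_UN_116775, UF_Ocu_AF_111876 and UF_Ocu_UN_120780 were not called (limma adjusted p = 0.264, 0.0918 and 0.0927), with at most 1 array of either day well above background.

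All comparisons with unwounded skin share its 2 arrays, so their sizes are given side by side only. The 938 and 753 probes were also chosen by their change at uncovered day 3, which favours larger sizes in that group. Over the 938 probes higher at uncovered day 3 the median log2 change against unwounded skin was 1.18 at day 0, 1.33 at uncovered day 3, 0.65 at covered day 3, 1.05 at uncovered day 5 and 0.63 at covered day 5. Over all tested probes the same medians were -0.02, 0.05, 0.09, 0.31 and 0.26. Over the 753 lower probes they were -1.45, -1.15, -0.64, -0.50 and -0.36.

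Arrays of neither group did not enter the changes by which the probes were chosen. Their spread did, through the shared fit of all 30 arrays. Wounds at day 0 were set against covered wounds at day 3, and uncovered against covered wounds at day 5. Of the 938 higher probes 434 (46.3%) were higher at day 0 than at covered day 3, where 18.2% of all tested probes were, and 408 of the 753 lower probes (54.2%) were lower, where 26.3% were. Of the 158 higher probes called against each unwounded array alone 128 (81.0%) were higher, and of the 52 such lower probes 26 (50%) were lower. At day 5, 244 of the 938 higher probes (26.0%) were higher in uncovered than in covered wounds, where 6.58% of all tested probes were, and 115 of those 158 (72.8%) were. The lower probes stood closer to the background there: 70 of 753 (9.30%) were lower, where 7.16% of all were, and of the 52 lower probes called against each unwounded array alone 2 (3.85%) were. Without slide 6, 32 of the 753 (4.25%) were lower, where 3.93% of all were.

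Among the named probes 11 of the 12 rises were higher in uncovered than in covered wounds at day 5 as well, all but UF_Ocu_AF_100831. UF_Ocu_AF_109724 averaged 2.72 ± 0.41 (n = 6, SD) with the wound open and -6.68 ± 0.82 (n = 5, SD) under film at day 5 (log2 difference 9.40, limma adjusted p = 1.84e-12). It was well above background on 1 of these 5 covered arrays, so the difference is not a measured size. The 12 falls gave log2 differences of -2.32 to 0.21 in that comparison, with limma adjusted p of 0.207 to 0.977. UF_Ocu_AF_107910 then averaged 0.29 ± 3.07 (SD, n = 5) in covered wounds, a spread wider than its difference from the uncovered ones.

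**Figure D5:**
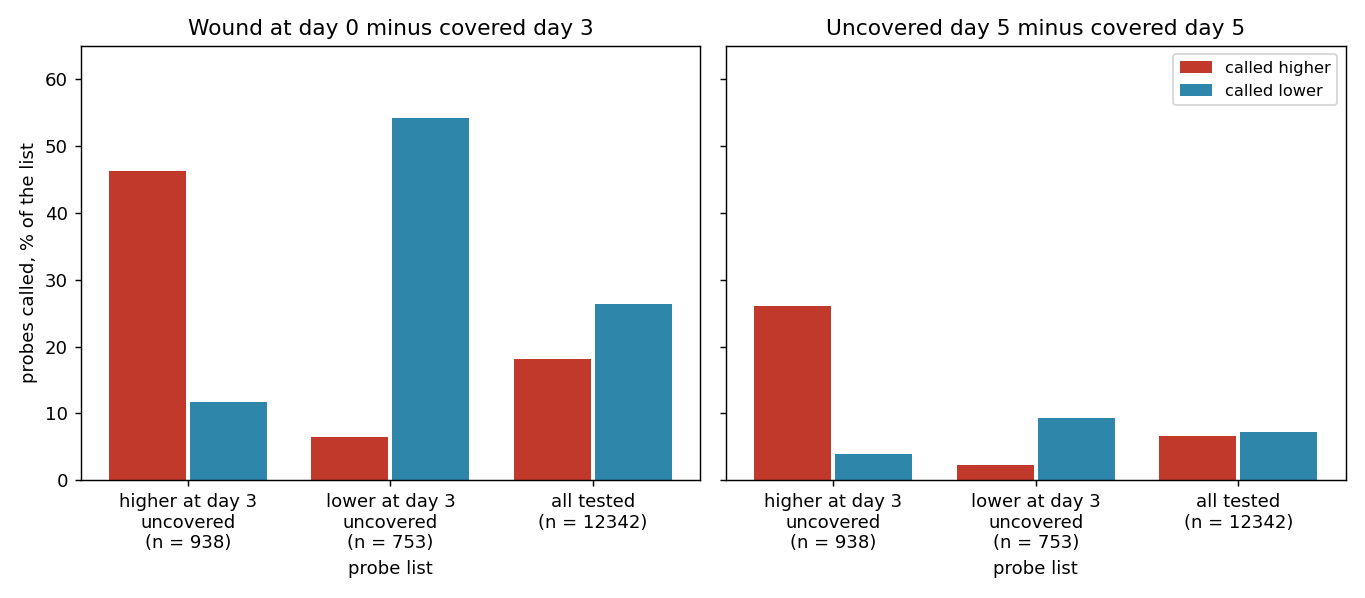
Share of probes called higher (red) and lower (blue) on arrays of neither uncovered day 3 nor unwounded skin, for the probes higher and lower at uncovered day 3 and for all tested probes. The left panel sets the wound at day 0 against covered day 3, the right panel uncovered against covered day 5. The higher probes stand above all tested probes in both panels, at 46.3% against 18.2% and 26.0% against 6.58%.

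The called probes were also counted by the names of their contigs. Contigs whose names begin with R4.sd held 11.2% of the tested probes, 22.2% of the higher, and 43.0% of the higher probes called against each unwounded array alone. They held 10.8% of the lower probes, 14.7% of those at least 2-fold lower and 19.2% of the lower probes called against each unwounded array alone. Of the 1379 tested probes of such contigs 208 were called higher (15.1%). What the prefix stands for is not given in the sources used here. Among the named probes 10 of the 12 rises had such names and 1 of the 12 falls. Of the falls 8 had names beginning with naf, nag, nbc or nbd, as did 43.0% of the tested probes.

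Over all called probes the letters differed little for the rises. The median GC content was 45% for the higher and 45% for all tested probes, and 40% for the lower probes. AATAAA, searched on the strand of the probe as printed, was in 12.3% of the higher, 15.0% of the lower and 10.6% of all tested probes. With ATTAAA added, the shares were 15.8%, 19.0% and 14.3%. ATTTA was in 6.72%, 11.2% and 7.68%. Among the probes called against each unwounded array alone, AATAAA was in 28 of 158 higher (17.7%) and 10 of 52 lower probes (19.2%). These letter strings are rich in A and T, as the lower probes were, and a match describes the probe and not a working site.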

How the data were processed

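Spot intensity was read by Agilent's Feature Extraction 10.1.1.1, which subtracted background and detrended within each array, per the file headers. No scaling across arrays had been applied to it. The authors' deposited values, also intensity, had column medians of 288 to 293 and served as an alternative, and their centring is not stated. The submitters' processing notes name limma. Control and outlier spots were left out, spots of a probe averaged on the log2 scale, and the 75th percentile of each array, over the 7446 probes given above, subtracted.

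All 30 arrays and 6 groups were fitted together without a block in limma 3.58.1 under R 4.3.3, by lmFit and eBayes with 2-sided tests and Benjamini-Hochberg adjustment over 12342 probes. The scripts were tested on simulated data. The number of arrays limits the precision. Named were the 12 largest changes in each direction by the rule given above, second probes of their contigs, the 5 lowest p-values in each direction, and 3 probes each side of the threshold. The members and lists were chosen with earlier results of these data known. Gene lists and cell type markers could not be used, since no probe has a gene name here: of 647 contigs named by a GenBank accession 0 were found in the gene table. Alternatives are in the closing section; the comparisons on arrays of neither group were added after seeing the data.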

Additional observations from a re-analysis of the deposited data

Results flagged for a closer look

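For 18 of the 24 named probes the change against unwounded skin differed between uncovered and covered wounds at day 3, as tested directly by limma in the uncovered minus covered comparison. Both changes are measured against the same 2 unwounded arrays, which cancel in the difference. In that comparison 7.23% of all tested probes were higher and 9.07% lower in uncovered wounds. It also shares the 6 uncovered arrays on which the 24 probes were chosen. Among the rises the log2 difference was 9.41 for UF_Ocu_AF_109724, 6.86 for UF_Ocu_AF_101829, 6.28 for UF_Ocu_AF_108490, 6.80 for UF_Ocu_AF_102422, 6.73 for UF_Ocu_AF_106575, 6.36 for UF_Ocu_AF_107344, 5.19 for UF_Ocu_UN_121601, 5.51 for UF_Ocu_AF_104471, 5.17 for UF_Ocu_AF_109803, 6.06 for UF_Ocu_AF_112455 and 5.32 for UF_Ocu_AF_110525. Among the falls it was -1.69 for UF_Ocu_UN_116775, -2.81 for UF_Ocu_AF_111876, -2.60 for UF_Ocu_UN_119427, -1.75 for UF_Ocu_UN_120780, -1.39 for UF_Ocu_UN_117986, -1.31 for UF_Ocu_AF_110427 and -1.53 for UF_Ocu_AF_103583. UF_Ocu_AF_111876, UF_Ocu_UN_120780 and UF_Ocu_AF_103583 were well above background on no uncovered day 3 array. Their differences are bounds of at least 2.32-fold, 1.05-fold and 1.08-fold lower, and the covered level of UF_Ocu_UN_120780 was measured on 2 and that of UF_Ocu_AF_103583 on 3 of the 5 arrays. UF_Ocu_UN_116775 and UF_Ocu_UN_117986 were well above background on 1 uncovered day 3 array each. With dim arrays raised as above, they were at least 2.21-fold and 1.32-fold lower. UF_Ocu_AF_104471 was well above background on no covered array and was at least 21.3-fold higher. The covered levels of UF_Ocu_AF_106575 and UF_Ocu_AF_109803 were measured on 1 of the 5 arrays. Those of UF_Ocu_AF_109724, UF_Ocu_AF_102422 and UF_Ocu_AF_110525 were measured on 2, that of UF_Ocu_AF_101829 on 3 and that of UF_Ocu_AF_108490 on 4. No uncovered day 3 array stood apart from the other 5 by Dixon's criterion (0.625 of the range for 6 samples) for any of the 24 probes.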

How the results depend on the processing

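Naming required calls against each unwounded array alone, so the 4 of 23 alternatives that drop an unwounded array are no check of the 24 named probes. Their direction was also largely fixed by the choice of large changes whose groups do not overlap. Under the other 19 alternatives the 24 probes kept that direction. They kept their call in 448 of 456 values, with losses under normexp background correction and array weights. Against 938 higher and 753 lower probes, the counts were 534 and 193 with normexp, 601 and 443 with no filter on dim probes, 184 and 69 with only the 8 arrays, 401 and 323 with slide as a fixed block, 447 and 401 with scan day as one, 170 and 70 with array weights, and 272 and 150 without slide 6. Without slide 5, 1661 were higher. Against 660 and 476 probes of at least 2-fold change, the counts were 410 and 120 with normexp, 330 and 288 with the authors' values, 184 and 69 with the 8 arrays, 310 and 271 with slide, 160 and 64 with array weights, and 248 and 140 without slide 6, and 331 were higher with scan day and 1553 without slide 5. Leaving out each array in turn gave 207 to 2084 higher and 81 to 854 lower probes, and 198 to 1880 and 78 to 661 of at least 2-fold change, with the lowest without unwounded replicate 2 and the highest without unwounded replicate 1. Among the named rises 11 stayed above covered wounds throughout, 6 to 7 above and 3 to 5 below day 0, and 2 to 5 were lower at day 5 than at day 3. Among the falls 7 stayed below covered wounds and 9 to 10 were higher at day 5. Of the rises 5 were below day 0 with the percentile over all probes, the authors' values, slide as a random block, scan day as a block or without slide 6, and 2 were lower at day 5 with no filter or without slide 5. Of the falls 1 was below covered wounds with normexp. The change of UF_Ocu_AF_100832 turned to -0.042 with slide as a block and to -0.13 with scan day. With scan day as a block the median change of all tested probes was -0.12. Under alternatives chosen after seeing the data, 19 to 119 of the lower probes were also lower in uncovered than in covered wounds at day 5, and normexp left 153 of the higher probes higher there. The causes of these moves were not tested.

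With a replicate block, 631 probes were higher and 535 lower. Replicate numbers are not stated to pair samples: over tested probes the deviations of uncovered replicates 1 to 6 correlated with that of unwounded replicate 1 with r of 0.24, -0.41, 0.36, 0.21, -0.07 and -0.07. Without uncovered replicate 5, 5 rises were below day 0, and 2 were lower at day 5 without uncovered replicate 1, 2, 4 or 5.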

Other observations

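A single contig with 2 tested probes had calls in opposite directions, and it was chosen after its values were seen. UF_Ocu_AF_100163 rose by 5.77 on the log2 scale (SE 1.38, limma adjusted p = 0.00687), while UF_Ocu_AF_100164 changed by -1.11 (SE 0.37, limma adjusted p = 0.0452). The first rests on unwounded replicate 1 alone, since its spots on unwounded replicate 2 were left out as outliers. The fit without unwounded replicate 2 gave UF_Ocu_AF_100164 a change of -0.93.

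Probes just below the threshold were as large as some just above it. UF_Ocu_AF_109524, not called, changed by 1.11 on the log2 scale (limma adjusted p = 0.05) with all 6 uncovered arrays at 0.68 or higher, against 0.06 and 0.03 on the unwounded arrays. UF_Ocu_UN_118480, called, changed by 1.50 (limma adjusted p = 0.0497), and its change was 0.09 against unwounded replicate 1 alone and 2.92 against replicate 2 alone.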
